A study of Mus musculus with 6 samples.

Results

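The livers studied were those of 3 WT and 3 *Pai-1* heterozygous (*Pai-1*+/-) C57BL/6 mice, which the labels give as 21 weeks old and fed without restriction, and hepatic mRNA was measured by RNA sequencing. The *Pai-1*+/- mice came from crosses of *Pai-1*-/- and WT mice, so the null allele was carried by all cells and not by hepatocytes alone. The WT mice are described as littermates, but the breeding step that gave WT littermates is not described. Both groups were on standard chow (SC). The labels state male sex for the WT mice only, and the study describes both groups as male. Described here are the genes of hepatic de novo lipogenesis, selected by gene symbol as *Slc25a1*, *Acly*, *Acss2*, *Acaca*, *Acacb*, *Fasn*, *Me1*, *Thrsp* and *Mid1ip1*. All 9 were found among the 24421 genes of the authors' deposited table.

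De novo lipogenesis is the pathway by which the liver turns carbohydrate into fatty acids. Citrate leaves the mitochondrion and is cleaved to acetyl-CoA in the cytosol, acetyl-CoA is carboxylated to malonyl-CoA, and fatty acid synthase joins these units into palmitate with reducing power from NADPH. In the liver the genes of the pathway are known targets of SREBP-1c and ChREBP, which respond to insulin and to glucose, and they are best known for rising on feeding and falling on fasting.

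The values are the authors' mean normalized counts, that is, read counts divided by a size factor for each library and averaged over the libraries of both genotypes. The counts per animal were not used, because the column headings are animal numbers that match no sample label, and the authors' own comparison of the genotypes is not reported here. Each value is therefore a level over WT and *Pai-1*+/- livers together, with no SD, and no difference between the genotypes is given. Counts before division by length are given for each of the lipogenesis genes and for some of the other genes. Levels of different genes were compared per kb of the transcript with the longest coding part unless another length is named. This length was chosen after the first levels had been seen. The longest annotated transcripts of *Acss2* and *Thrsp*, of 3609 and 1400 bases, are not those with the longest coding part. Values by the longest transcript are given beside those of *Acss2* and *Thrsp* and beside some others. With the counts per animal not used, no test between genes was run, so an order of levels is a description, and whether neighbours in it differ beyond the spread between mice was not tested.

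The mean normalized counts summed to 30045982, of which the lipogenesis genes took 0.0868%. Of the 24421 genes, 17678 had a mean above 0, with a median of 170.4 normalized counts, and 16953 of these matched 1 gene of the annotation. Their median level was 59.8 normalized counts per kb, and percentiles per kb are among them unless another scale is named. All 9 lipogenesis genes had a mean normalized count above 10 and lay above that median, with a median among themselves of 848 per kb. When only coding bases were used, *Acaca* fell below the median, to percentile 46.0 among the 15576 genes with a coding length. In the top 10% of genes per kb, above 972.7, were 3 of them, *Slc25a1*, *Thrsp* and *Acss2*. By the longest transcript, the length used at first, 5 were in the top 10%, with *Me1* and *Acly* added, by coding length 2, by all exonic bases 4 and without division by length 6, so this count depends on the scale. *Acss2* was outside the top 10% by coding length, at percentile 87.7, and by all exonic bases, at percentile 85.5.

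Per kb of coding transcript the levels spanned 38.8-fold, from 3248 for *Slc25a1* down to 83.6 for *Acaca*. Before division by length the span was 6.80-fold. The order per kb was *Slc25a1*, *Thrsp*, *Acss2*, *Me1*, *Acly*, *Mid1ip1*, *Fasn*, *Acacb* and *Acaca*, so the genes that supply citrate, acetyl-CoA and NADPH stood above the enzymes that make malonyl-CoA and palmitate. Before division by length this did not hold for *Fasn*, at 3792 mean normalized counts against 3753 for *Acly* and 3193 for *Me1*. *Acaca* was lowest and *Slc25a1* highest with each of the 4 lengths tried, but by coding length *Slc25a1* was only 1.02-fold above *Thrsp*.

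**Figure D1:**
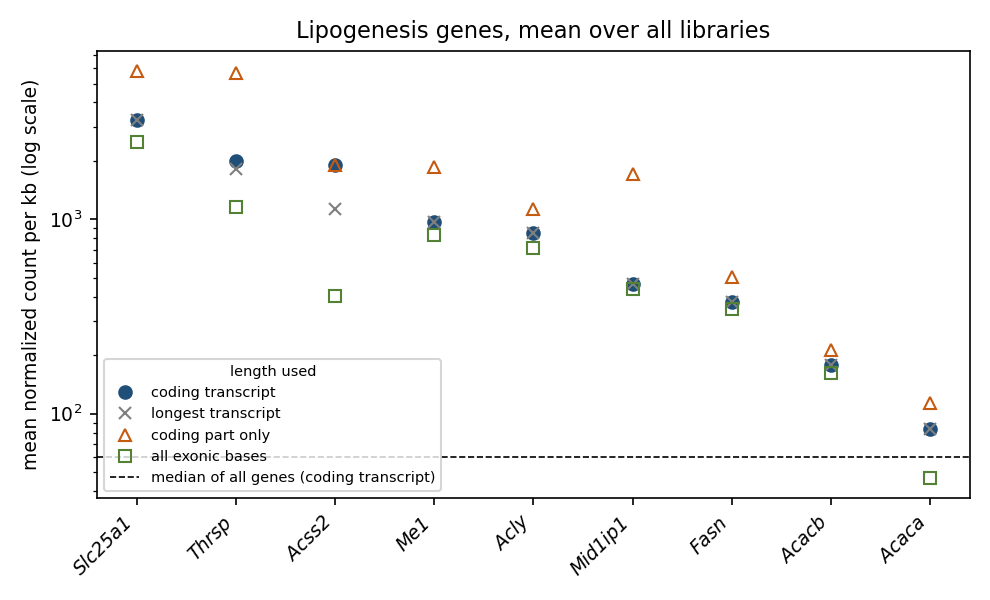
Level of each lipogenesis gene (mean normalized count per kb, log scale), averaged by the authors over all libraries of both genotypes, with each marker standing for a different choice of gene length and the dashed line for the median of all genes by coding transcript. *Slc25a1* is highest and *Acaca* lowest for all 4 lengths, and the markers of *Acss2* are spread from 403 to 1912 per kb.

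Among the suppliers of cytosolic acetyl-CoA, *Slc25a1*, the mitochondrial citrate carrier, had 5412 mean normalized counts and 3248 per kb, at percentile 96.5 of the matched genes. It is a compact gene on the minus strand of chromosome 16 (GRCm38 chr16:17925223-17928219), with 9 exons in 1666 bases of transcript. *Acly*, ATP citrate lyase, which splits the exported citrate, had 3753 mean normalized counts and 848 per kb, at percentile 88.8. It lies on the minus strand of chr11:100476353-100528000 and has 29 exons. The citrate carrier stood 3.83-fold above the lyase per kb.

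*Acss2*, the cytosolic acetyl-CoA synthetase that makes acetyl-CoA from acetate, had 4095 mean normalized counts and 1909 per kb, at percentile 94.3. It lies on the plus strand of chr2:155517948-155585724, with 19 exons. By the longest transcript it had 1135 per kb. Its transcript with the longest coding part has 2145 bases, of which 2142 are coding. With all 10163 exonic bases of its 10 transcripts it had 403 per kb, and its position relative to *Acly* turned, from 2.25-fold above, or 1.34-fold by the longest transcript, to 0.567 of the *Acly* level. Of its 2 relatives in the mitochondrion, *Acss3* had 82.8 per kb and *Acss1* 5.02 per kb, so *Acss2* stood 23.0-fold and 380-fold above them, 13.7-fold and 226-fold by the longest transcript, and 7.45-fold and 91.6-fold with all exonic bases.

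*Me1*, the cytosolic malic enzyme that yields NADPH, had 3193 mean normalized counts and 971.2 per kb, at percentile 89.98, just outside the top 10%. It lies on the minus strand of chr9:86581371-86695953, with 14 exons in 3288 bases of transcript. The mitochondrial malic enzymes were far lower, with *Me2* at 22.3 and *Me3* at 1.67 normalized counts per kb, from 43.6-fold to 102-fold and from 451-fold to 1624-fold below *Me1* over the lengths. *G6pdx*, which opens the pentose phosphate pathway in the cytosol, had 40.5 per kb, and *Me1* stood 24.0-fold above it.

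The carboxylases and the synthase lay lower per kb. *Acaca* encodes acetyl-CoA carboxylase 1, the cytosolic enzyme whose malonyl-CoA feeds fatty acid synthesis, and had 795.6 mean normalized counts and 83.6 per kb, at percentile 54.4. *Acacb* encodes acetyl-CoA carboxylase 2, which sits at the mitochondrial surface and whose malonyl-CoA restrains carnitine palmitoyltransferase 1, and had 1556 mean normalized counts and 177 per kb, at percentile 66.6. The mitochondrial form thus stood 2.12-fold above the cytosolic form per kb of transcript, 1.87-fold per kb of coding sequence and 3.47-fold per kb of all exonic bases. The genes resemble each other in structure, with 56 exons and 2345 codons in *Acaca* (plus strand, chr11:84129672-84401651) and 53 exons and 2448 codons in *Acacb* (plus strand, chr5:114146535-114250761).

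*Fasn*, fatty acid synthase, had 3792 mean normalized counts, the third of the lipogenesis genes before division by length. Its transcript is the longest of the genes described, with 10050 bases in 43 exons (minus strand, chr11:120805846-120824547), and per kb it had 377, at percentile 78.8. *Fasn* stood 4.51-fold above *Acaca*, or 7.43-fold with all exonic bases, and 2.13-fold above *Acacb* per kb.

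*Thrsp* and *Mid1ip1* encode small proteins of 150 and 182 codons, Spot 14 and its relative MIG12, which are not enzymes. MIG12 promotes the polymerization of acetyl-CoA carboxylase, and Spot 14 is a thyroid hormone-responsive protein that binds to it. *Thrsp* (minus strand, chr7:97412938-97417730) had 2549.9 mean normalized counts and 1997 per kb, at percentile 94.5, and 1821 per kb by the longest transcript. *Mid1ip1* (plus strand, chrX:10715013-10719690) had 936.7 mean normalized counts and 463 per kb, at percentile 81.7. *Thrsp* stood 4.31-fold above *Mid1ip1* per kb, and the fold was from 2.65 to 3.93 with the other lengths.

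**Figure D2:**
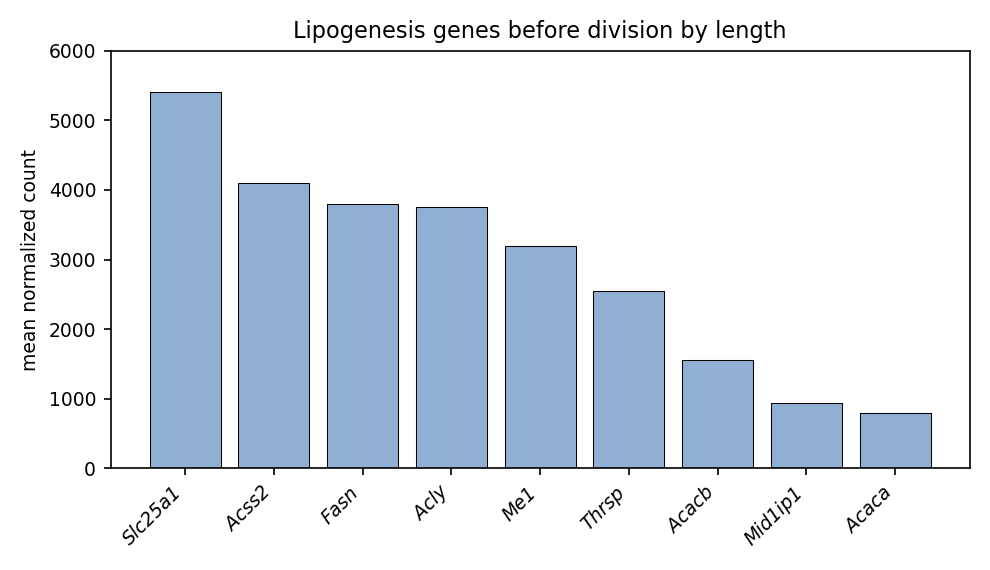
Mean normalized count of each lipogenesis gene before division by length, averaged by the authors over all libraries of both genotypes (bars from 0, no error computed). The bars run from 5412 for *Slc25a1* to 795.6 for *Acaca*, and *Fasn* at 3792 ranks higher here than per kb because its transcript is long.

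Reads that fit more than 1 gene can be lost or split, and how such reads were counted and whether strand was used are not given in the sources used here. For each gene, in a check added after the levels had been seen, every distinct stretch of 75 bases, the read length, was therefore looked for in all other annotated transcripts on either strand. None was shared for *Slc25a1*, *Acly*, *Acacb*, *Fasn* and *Thrsp*. For *Acaca* 26.8% of 17256 stretches were shared, nearly all of them with *Gm5182*, a processed pseudogene on chromosome 12, which alone held 26.2%. For *Me1* 758 of 3789 stretches were shared, with *Gm7049* holding 13.9% and *Gm48795* 11.6%.

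*Mid1ip1* shared 18.8% of its stretches with *Gm14493*, an antisense gene that covers 543 of its exonic bases on the other strand of the same locus. *Gm14493*, *Gm5182*, *Gm7049* and *Gm48795* are not among the 24421 genes, so no level of theirs is given. *Acss2* shared 4.63%, including 177 stretches with *Gss* on the other strand, which had 1884 mean normalized counts of its own. *Acaca* and *Acacb* shared no stretch of this length, so reads of the isoforms can be told apart by sequence. The shares given are over all annotated transcripts of a gene and not over the transcript whose length was used. They therefore do not bound the error of a level. The levels of *Acaca*, *Me1* and *Mid1ip1* and the folds against them are uncertain. How far the shared stretches lowered or raised these levels was not tested.

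**Figure D3:**
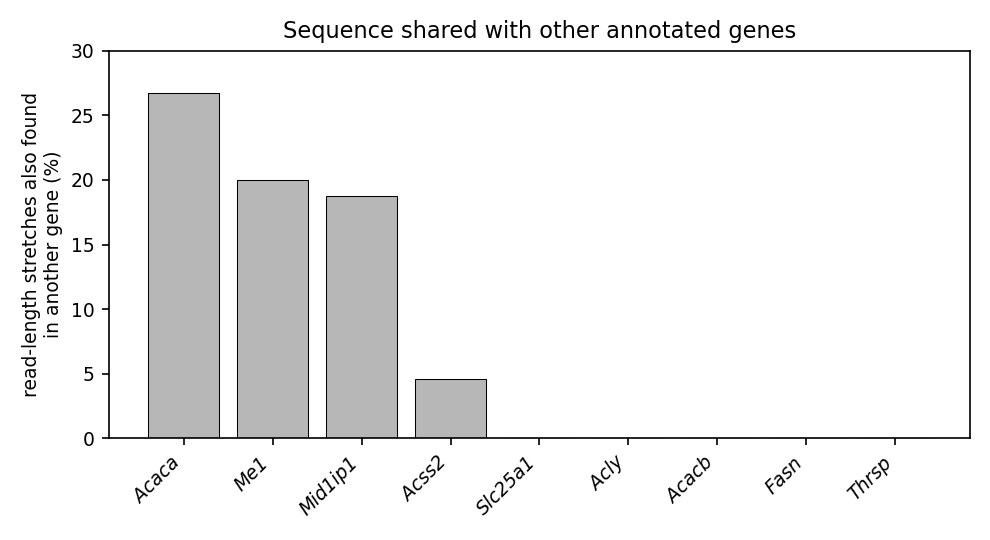
Percentage of the distinct 75-base stretches in the annotated transcripts of each lipogenesis gene that also occur in a transcript of another gene on either strand. *Acaca* is highest at 26.8%, followed by *Me1* with 758 of 3789 stretches, *Mid1ip1* at 18.8% and *Acss2* at 4.63%, and the other 5 genes are at 0.

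Pairs of genes set against each other were picked with the levels in view, so their folds are descriptions. The neighbours of these genes in the pathway were read from 6 lists holding 94 genes, 85 of them not among the lipogenesis genes above. All 94 were in the table and 90 had a mean normalized count above 10. In the list of citrate and acetyl-CoA supply all 19 genes were above 10 and 14 were in the top 10% per kb, with a list median of 1858 per kb, or 15 and 1392 by the longest transcript. *Mdh1*, cytosolic malate dehydrogenase, led it with 7848 per kb, followed by *Pcx*, pyruvate carboxylase, with 5798, 2.42-fold and 1.78-fold above *Slc25a1*. By coding length *Pcx* stood only 1.17-fold above *Slc25a1* and below *Slc25a10*. *Slc25a10*, the dicarboxylate carrier, had 3543 per kb against 3248 for *Slc25a1*, and this order turned with all exonic bases.

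In the NADPH list 12 of 13 genes were above 10 and 8 were in the top 10%, with a median of 1122 per kb. *Idh1*, cytosolic isocitrate dehydrogenase, had 5257 per kb and *H6pd*, the pentose phosphate enzyme of the endoplasmic reticulum, had 3088, so they stood 5.41-fold and 3.18-fold above *Me1*. The list of malonyl-CoA and fatty acid synthesis had a median of 359 per kb over 13 genes, of which 12 were above 10 and 3 were in the top 10%. These 3 were *Thrsp*, *Btd*, which recycles biotin, with 1318 per kb, and *Mlycd*, malonyl-CoA decarboxylase, with 1299. *Mlycd*, the enzyme that removes malonyl-CoA, stood 7.33-fold above *Acacb*, or 5.32-fold by the longest transcript and 1.78-fold before division by length. *Hlcs*, which attaches biotin to the carboxylases, had 135 per kb, and *Olah*, a thioesterase known from mammary gland, had a mean of 0.15 normalized counts.

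The list of acetyl-CoA carboxylase kinases and phosphatase had a median of 327 per kb over 12 genes, 10 of them above 10, with 1 in the top 10% and none by the longest transcript. The catalytic AMP-activated kinase subunit *Prkaa2* had 294 per kb and *Prkaa1* 117, and *Stk11*, their upstream kinase, had 1168 per kb. The muscle subunit *Prkag3* had a mean of 0.63 normalized counts. The transcriptional regulators had a median of 494 per kb over 21 genes, all above 10. *Mlxipl*, which encodes ChREBP, had 1568 per kb and *Srebf1* 982, the latter 3.05-fold above *Srebf2*. *Insig2*, which holds SREBP in the endoplasmic reticulum, had 5544 per kb and *Insig1* 2311. The gene-level value of *Srebf1* does not separate the 1a and 1c forms.

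The list on the fate of palmitate had the highest median of the 6, of 2823 per kb over 16 genes. It also holds *Elovl2* at 7313, *Fads1* at 4330 and *Fads2* at 3230 per kb. Like *Elovl5*, they act on polyunsaturated fatty acids and lie above this median, and the median without them was not computed. *Scd1*, stearoyl-CoA desaturase, had 24644 per kb and stood 65.3-fold above *Fasn*, or 221-fold by coding length and 31.4-fold before division by length. *Elovl5*, an elongase of polyunsaturated fatty acids, had 11682 per kb and stood 31.0-fold above *Fasn*, or 71.8-fold by coding length and 8.57-fold before division by length. *Elovl6*, the elongase that acts on palmitate itself, had 213 per kb, or 0.565 of *Fasn*, an order that turned when only coding bases were used.

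**Figure D4:**
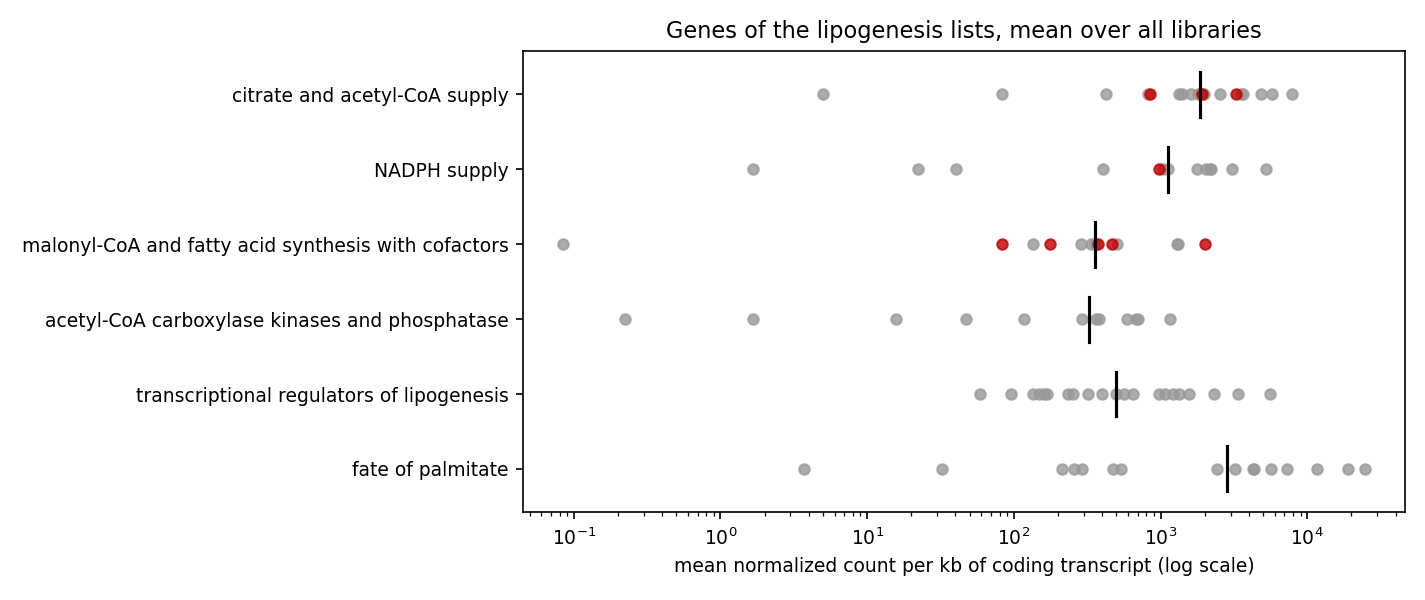
Level of each gene (mean normalized count per kb of coding transcript, log scale) in the 6 gene lists, averaged by the authors over all libraries of both genotypes, with lipogenesis genes in red, other genes in grey and a black bar at each list's median. The medians run from 327 per kb for the carboxylase kinases and phosphatase to 2823 for the fate of palmitate.

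The tissue was checked against markers of the cells a liver sample can hold. All 7 hepatocyte markers were in the top 10%, from 5594 per kb for *Hnf4a* upward. Adipocytes also run lipogenesis, and 4 of their 6 markers were below 10 mean normalized counts, *Lep* at 0.87, *Retn* at 1.90, *Plin1* at 4.75 and *Adipoq* at 7.87. The other 2 were higher, with *Fabp4* at 212 per kb, above *Acacb* and *Acaca* (44.96 per kb and below both by the longest transcript), and *Cfd* at 85.9 per kb, slightly above *Acaca*, and the list median was 3.89 per kb. *Cd5l*, a Kupffer cell marker, had 1166 per kb, the 6 Kupffer cell markers had a median of 379.9 and the 5 endothelial markers a median of 156. The 5 stellate cell markers had a median of 71.7, the 4 cholangiocyte markers 40.3 and the 4 lymphocyte markers 13.1 per kb. Among the stellate cell markers *Dcn* was far higher, at 2366 per kb, above all the lipogenesis genes except *Slc25a1*. By the longest transcript *Dcn* had 886.5 per kb. The haemoglobin genes *Hba-a1*, *Hba-a2*, *Hbb-bs* and *Hbb-bt* were listed at 0, while *Alas2*, the erythroid enzyme of haem synthesis, had 2136 mean normalized counts. From 51.5% to 84.6% of the 75-base stretches of these haemoglobin genes were shared with another gene, and the part of such sharing in the values of 0 was not tested. In bulk tissue fewer cells of a type and less RNA per cell cannot be told apart.

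**Figure D5:**
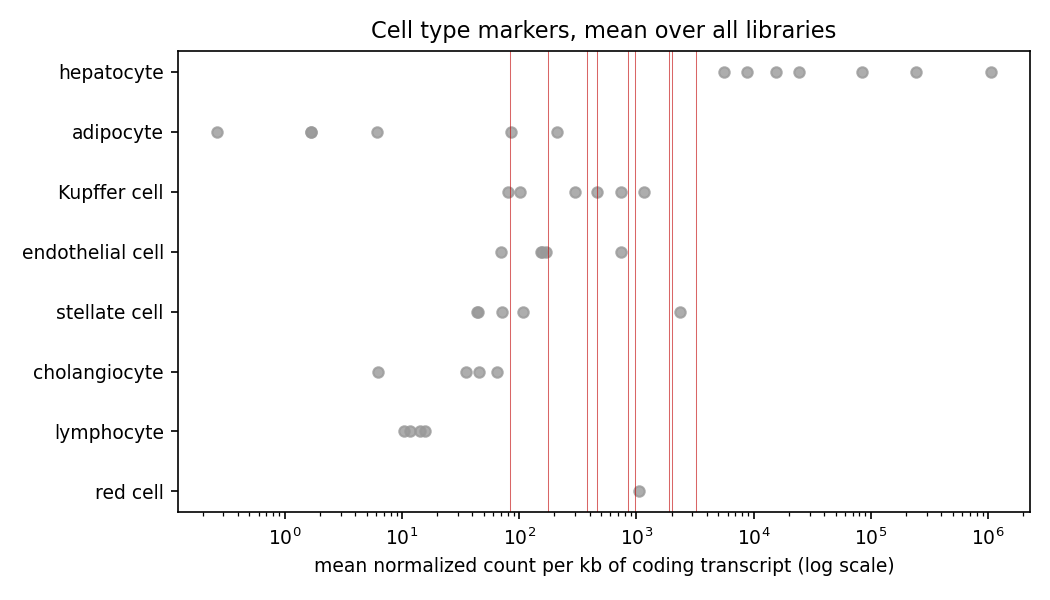
Level of each cell type marker with a mean above 0 (grey points, mean normalized count per kb of coding transcript, log scale), averaged by the authors over all libraries of both genotypes, with thin red lines at the levels of the lipogenesis genes. The hepatocyte markers lie above all red lines, and 4 of the adipocyte markers lie to the left of all of them.

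The promoters of the 9 genes were read from RefSeq (GRCm38.p6), which gives 10 windows of 250 bases before and 50 after a start site, 2 of them for *Me1*. Their GC content ran from 39.7% for *Acaca* to 74.7% for the upstream promoter of *Me1*. The NF-Y box CCAAT, on either strand, was in 7 of the 10 windows, each of a different gene, and in 37.4% of all 32851 promoter windows. The GC box GGGCGG was in 5 of 10, against 35.7% of all windows. The E-box CACGTG was in 1, that of *Slc25a1*, against 7.15%. The sterol element TCACNCCAC and pairs of AGGTCA spaced by 4 bases were in none of the 10, and in 1.24% and 0.0152% of all windows. The letters CCAATTGG of *Fasn* count as an NF-Y box on each strand.

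The NF-Y box lay within 150 bases before the start in 5 genes, *Slc25a1*, *Acss2*, *Acacb*, *Fasn* and *Thrsp*. The share of all promoter windows with a box so placed was not computed, so no excess is read from this count. The stretches of *Slc25a1*, *Acacb* and *Fasn* are shown, because they hold this most widely shared box and overlap no annotated exon of the gene, a rule for display set after the motif counts were seen. Each runs 5′ to 3′ on the strand of the gene from position -140 to -30 before the start site, with NF-Y boxes (CCAAT or ATTGG) and GC boxes (GGGCGG or CCGCCC) in capitals. They are at chr16:17928249-17928359 (minus strand), chr5:114165378-114165488 (plus strand, within the annotated gene) and chr11:120824577-120824687 (minus strand). No binding was measured, and a match is a description of the letters only.
Slc25a1: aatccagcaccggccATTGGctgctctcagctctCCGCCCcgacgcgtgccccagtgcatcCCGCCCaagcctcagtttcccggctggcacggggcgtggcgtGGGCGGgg
Acacb: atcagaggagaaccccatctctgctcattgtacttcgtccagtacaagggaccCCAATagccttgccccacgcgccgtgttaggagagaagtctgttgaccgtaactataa
Fasn: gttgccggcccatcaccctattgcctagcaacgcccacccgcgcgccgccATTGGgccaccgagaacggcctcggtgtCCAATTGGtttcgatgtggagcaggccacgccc
*Fasn* holds 3 NF-Y boxes in this stretch, where *Slc25a1* and *Acacb* each hold 1, and *Slc25a1* is the one with GC boxes. The window of *Acaca*, the only one read for this gene, held none of the motifs searched. It lies inside the annotated gene, as do those of *Acacb* and *Mid1ip1* and the downstream window of *Me1*.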

How the data were processed

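Hepatic mRNA libraries of 3 WT and 3 *Pai-1*+/- mice were sequenced by the authors as single 75-base reads, aligned to mm10 with STAR and compared with DESeq2 through RNA Express. The submitters' processing notes also name HOMER. Versions, gene annotation and strand setting are not given in the sources used here. The only values used were a deposited signal, the authors' average of size-factor-normalized counts across the libraries of both genotypes. The same table's fold changes, standard errors, Wald statistics and p-values are the authors' own comparison and were not used. A deposited table of counts has 6 columns headed by animal numbers that match no label, so none was used, and the planned comparison of the genotypes with its alternatives was not run. With these columns unused, neither the depth per library nor the spread between animals was computed, and no value has an error.

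Genes were matched by symbol to GENCODE M21 on GRCm38, the assembly of mm10 (95.9% of genes above 0 matched 1 gene). Levels were divided by the length of the transcript with the longest coding part. At first the longest transcript of any kind was used, and the change was made after those levels had been seen. Alternatives were that longest transcript, the coding length, ranks among genes above 10, no division and, added later, all exonic bases. Promoters came from RefSeq (GRCm38.p6). The pairs of genes compared, the check for shared stretches and the choice of promoter stretches shown were also made with values in view. The genes named are the 9 members, members of the lists and markers, and genes that share sequence with a member. The level of the targeted gene is not reported here. The members and lists were chosen with earlier results of these data known. Functions were tested on simulated data. Python 3.11.15, NumPy 2.4.6, pandas 2.3.3 and Matplotlib 3.10.9 were used.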

Additional observations from a re-analysis of the deposited data

How the results depend on the processing

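The median percentile of the 9 lipogenesis genes among the 16953 matched genes per kb was 88.8. It was 90.1 with the longest transcript of any kind, 86.7 with the coding length, 84.9 among genes with a mean normalized count above 10, 92.6 without division by length and, in a setting chosen after seeing the data, 86.6 with all exonic bases. The main length itself was chosen after levels by the longest transcript had been seen. Under the main length 3 of the 9 genes were in the top 10%, against 5 by the longest transcript, 6 without division by length, 2 by coding length, 3 among genes above 10 and 4 by all exonic bases. The percentiles of single genes moved by at most 19.5 points, and all stayed above 50 except those of *Acaca*, which fell to 46.0 with the coding length and 38.2 among genes above 10. Percentiles by coding length are among the 15576 genes with a coding length, and those without division are among 17678 genes. In these settings the moves reflect the set of genes ranked as well as the length. The difference between the genotypes, with its normalization, filter, test and left-out libraries, was not run, since no column of counts could be given to a sample or group. No paired analysis was possible because the columns of counts carry animal numbers and no replicate numbers. Neither the spread between mice nor the depth of a library was computed, so the precision of these levels is not given.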
